A study of Mus musculus with 24 samples.

Results

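Cholesterol and fatty acid synthesis was followed through 31 genes. They were picked from the 24091 rows of the read count table by their place in the pathway. The rule itself uses no measured value, but the 31 genes were chosen with earlier results of these data known. They were 7 enzymes of the mevalonate pathway, 11 enzymes that carry squalene to cholesterol, 6 genes of SREBP control and sterol transfer, and 7 genes of fatty acid synthesis and desaturation. All 31 passed the filter on low counts that left 13520 genes for testing.

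Cholesterol is built from acetyl-CoA by way of mevalonate, squalene and a chain of sterol intermediates, and the shorter mevalonate products also feed protein prenylation, ubiquinone and dolichol. The pathway is run by the SREBP transcription factors, which are held in the endoplasmic reticulum by SCAP and the INSIG proteins while sterols are plentiful and are released to the Golgi and cleaved when sterols fall. SREBP-2 (Srebf2) mainly drives cholesterol genes, and SREBP-1 (Srebf1) mainly drives fatty acid genes. Stem and progenitor cells of the bone marrow make both kinds of lipid for membranes, for the modification of signalling proteins and for storage.

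The libraries were bulk RNA-seq of Lin-Sca-1+c-Kit+ cells (LSKs), the fraction of mouse bone marrow that holds stem and early progenitor cells, with 1 library per mouse. Each of 4 groups held 6 mice, of which 3 were female. WT mice carried normal miR-142, and miR-142 KO mice lacked it in every cell (miR-142-/-). CP CML mice carried SCLtTA/BCR-ABL, in which a tetracycline-controlled activator under the SCL promoter switches on BCR-ABL when tetracycline is withdrawn, with normal miR-142, on the B6 background, and they model chronic phase chronic myeloid leukemia. BC CML mice carried the same transgenes on the miR-142-/- background and stand for blast crisis. In both CML groups BCR-ABL had been on for 2 weeks. The study places the first circulating blasts of the mice with BCR-ABL and without miR-142 later than this. No ages were given in the sources used here, though the study describes its leukemic and normal mice as matched for age and gender. The knockout is constitutive, so effects of its loss within LSKs and in the cells around them cannot be told apart.

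Total counts were 16267965 to 24687077 per library. Mir142, the deleted gene, had 94 to 127 counts in WT, 68 to 153 in CP CML and 0 in all 12 miR-142 KO and BC CML libraries, which allows up to 3. The 7 LSK marker genes summed to 2951 to 3670 CPM among WT and 2964 to 3298 CPM among miR-142 KO mice. The range was 2875 to 3385 CPM for CP CML and 2897 to 3057 CPM for BC CML, and no LSK marker was at 0 in a group. Single LSK markers moved within these sums. Ly6a, which codes for Sca-1, had means of 41.66 CPM for WT, 92.3 for miR-142 KO, 51.92 for CP CML and 110.3 for BC CML LSKs. The mean of Kit was 1109 CPM for CP CML and 807.2 CPM for BC CML mice. Of the 7 markers, 1 was higher and 2 lower in BC CML than CP CML LSKs, and 2 were higher and 1 lower in miR-142 KO than WT LSKs. In CP CML against WT LSKs 2 were higher and 3 lower, and in BC CML against miR-142 KO LSKs 0 and 3. Markers of other cell types moved with the groups. The 8 mature B and plasma cell markers had summed medians of 491.8 CPM in WT, 526.3 in CP CML, 156.3 in miR-142 KO and 263.3 in BC CML LSKs. The 6 mast cell or basophil markers had summed medians of 399.2, 1852, 1045 and 5695 CPM in the same order. Those of the 9 neutrophil markers were 2145, 5579, 6525 and 6741 CPM. Single neutrophil markers did not all follow the sum. In BC CML against miR-142 KO LSKs 2 of the 9 were higher and 5 lower, and in miR-142 KO against WT LSKs 8 and 0. In BC CML against CP CML LSKs 3 were higher and 1 lower, and in CP CML against WT LSKs 4 and 1. In miR-142 KO against WT LSKs 5 of 7 marrow macrophage markers were lower, 5 of 5 megakaryocyte markers higher and 1 of 6 tested erythroid markers lower, and in BC CML against CP CML LSKs these lists had 0, 0 and 0 higher and 0, 1 and 1 lower. In CP CML against WT LSKs these lists had 0, 1 and 0 higher and 0, 1 and 4 lower. In BC CML against miR-142 KO LSKs they had 2, 0 and 0 higher and 0, 4 and 3 lower. Of all genes, 38% were called in BC CML against CP CML and 36.3% in miR-142 KO against WT LSKs. The shares were 45.4% in CP CML against WT and 39.6% in BC CML against miR-142 KO LSKs. Of the 8 cycling cell markers 2 were higher in BC CML than CP CML LSKs (25%). In miR-142 KO against WT LSKs 1 was higher (12.5%), and in either 0 were lower. The part of these cells in the results that follow was not tested. In bulk samples fewer cells of a type and less RNA per cell cannot be told apart.

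The sequences that bear on the comparisons are the mature strands of the deleted miRNA, the short sites in the studied transcripts that pair with them, and the start regions of the genes for sterol control. The miR-142 strands were taken from RefSeq (GRCm38.p6), at chr11:87756867-87756887 and chr11:87756903-87756925 on the plus strand. Capitals mark the seed, bases 2 to 8, with which a miRNA mainly finds its targets, and the strands have different seeds.
miR-142a-5p: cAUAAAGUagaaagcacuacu
miR-142a-3p: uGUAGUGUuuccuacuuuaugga

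Letters complementary to a seed were searched in the longest annotated 3' UTR of each gene (GENCODE vM21 on GRCm38, the assembly that mm10 names). The miR-142a-5p site ACTTTAT was found in 5 of 31 genes (16.1%), Hmgcs1, Srebf1, Stard4, Acaca and Elovl6, and in 14.3% of 20963 genes with a 3' UTR. The miR-142a-3p site ACACTAC was found in 2 of 31 genes (6.45%), Fdft1 and Insig2, and in 6.0% of all genes. The 3' UTRs of the 31 genes had a median length of 1553 bases, and those of all genes 955. Shown here with the match in capitals are the sites of 3 genes that changed with loss of miR-142 in at least 1 comparison, within the 3' UTR. They lie at chr1:121304525-121304531 on the minus strand (Insig2), chr11:84400892-84400898 on the plus strand (Acaca) and chr3:129634238-129634244 on the plus strand (Elovl6).
Insig2, miR-142a-3p site: tggtgaccACACTACtctattta
Acaca, miR-142a-5p site: cagtttcaACTTTATgactaata
Elovl6, miR-142a-5p site: cccatgatACTTTATtactggga

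Among the genes with a site, Insig2 and Acaca were higher in miR-142 KO than WT LSKs while Elovl6 was lower, and Hmgcs1, Srebf1, Stard4 and Fdft1 did not pass the test there. The 3 sites shown were picked because their genes changed. Stard4 held several sites, and only the Hmgcs1 and Fdft1 sites were followed by an A. A letter match is not a site in use.

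RefSeq start regions of 300 bases around the annotated starts were given for 24 of the 31 genes. They were searched on both strands for the core TCACNCCAC of a sterol regulatory element, for the CCAAT box (CCAAT), the GC box (GGGCGG) and the E-box (CACGTG). Of all 32851 regions, 1.24%, 37.4%, 35.7% and 7.15% held them in this order, and of the 27025 genes with a region 1.44%, 41.1%, 38.2% and 8.09% held them in at least 1. Among the 24 genes, 1 held the sterol element core, 19 a CCAAT box, 20 a GC box and 5 an E-box, also in at least 1 region each. The regions of Hmgcs1, the gene with the sterol element core, and of 3 control genes that changed with loss of miR-142 are given with matches in capitals. They lie at chr13:119690101-119690400 on the plus strand (Hmgcs1), chr15:82147019-82147318 on the plus strand (Srebf2), chr5:28071162-28071461 on the plus strand (Insig1) and chr1:121332540-121332839 on the minus strand (Insig2, the start that matches the deposited table).
Hmgcs1: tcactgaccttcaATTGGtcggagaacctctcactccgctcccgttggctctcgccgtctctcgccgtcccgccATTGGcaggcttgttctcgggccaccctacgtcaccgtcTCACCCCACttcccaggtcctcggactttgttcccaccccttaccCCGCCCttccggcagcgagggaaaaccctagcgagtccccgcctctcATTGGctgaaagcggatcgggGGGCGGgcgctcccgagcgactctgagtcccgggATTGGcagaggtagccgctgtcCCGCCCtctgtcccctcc
Srebf2: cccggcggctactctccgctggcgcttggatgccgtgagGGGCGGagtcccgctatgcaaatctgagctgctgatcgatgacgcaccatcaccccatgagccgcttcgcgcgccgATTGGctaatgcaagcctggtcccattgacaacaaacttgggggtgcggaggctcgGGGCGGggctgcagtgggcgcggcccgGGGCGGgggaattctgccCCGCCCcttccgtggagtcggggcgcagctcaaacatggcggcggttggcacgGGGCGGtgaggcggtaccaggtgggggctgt
Insig1: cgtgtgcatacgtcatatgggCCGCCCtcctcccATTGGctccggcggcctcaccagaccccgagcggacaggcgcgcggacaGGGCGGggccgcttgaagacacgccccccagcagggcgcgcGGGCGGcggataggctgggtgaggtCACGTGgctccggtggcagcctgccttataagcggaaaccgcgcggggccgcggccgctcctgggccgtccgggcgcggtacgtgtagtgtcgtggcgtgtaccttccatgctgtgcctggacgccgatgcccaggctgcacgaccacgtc
Insig2: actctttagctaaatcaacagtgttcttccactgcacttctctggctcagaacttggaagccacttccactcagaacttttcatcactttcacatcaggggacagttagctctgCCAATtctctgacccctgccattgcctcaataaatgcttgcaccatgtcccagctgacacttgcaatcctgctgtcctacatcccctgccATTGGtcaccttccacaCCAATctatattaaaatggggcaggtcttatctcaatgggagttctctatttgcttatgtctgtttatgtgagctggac

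The Insig1 region held 1 CCAAT box, 3 GC boxes and 1 E-box, and the Insig2 region shown held 3 CCAAT boxes and none of the other motifs. The other 2 start regions of Insig2, at chr1:121327629-121327928 and chr1:121327975-121328274 on the minus strand, each held 1 GC box and no CCAAT box. The Srebf2 region held 1 CCAAT box and 5 GC boxes. No match says only that these letters are not in this window.

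The genes spanned a wide range of levels. On the scale of CPM per kilobase of gene model, Scd2, a stearoyl-CoA desaturase, was the highest in every group, at 109.5 for WT, 114.4 for miR-142 KO, 97.51 for CP CML and 124 for BC CML LSKs. Srebf2 followed with 48.39 in WT, and Fasn, the fatty acid synthase, with 31.56. Between Srebf2 and Fasn the order turned in BC CML LSKs, where Fasn had 36.16 ± 4.67 (SD, n = 6) and Srebf2 32.09 ± 2.51 CPM per kilobase, a gap smaller than the SD of Fasn.

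At the other end stood Scd1, the second desaturase, with 0.4049 CPM per kilobase in WT, and Idi1, the isopentenyl diphosphate isomerase, with 0.3571. The ranks of these 2 lowest genes changed places between groups. Tm7sf2, a sterol C14 reductase, ranked 29 of 31 in each group.

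**Figure D1:**
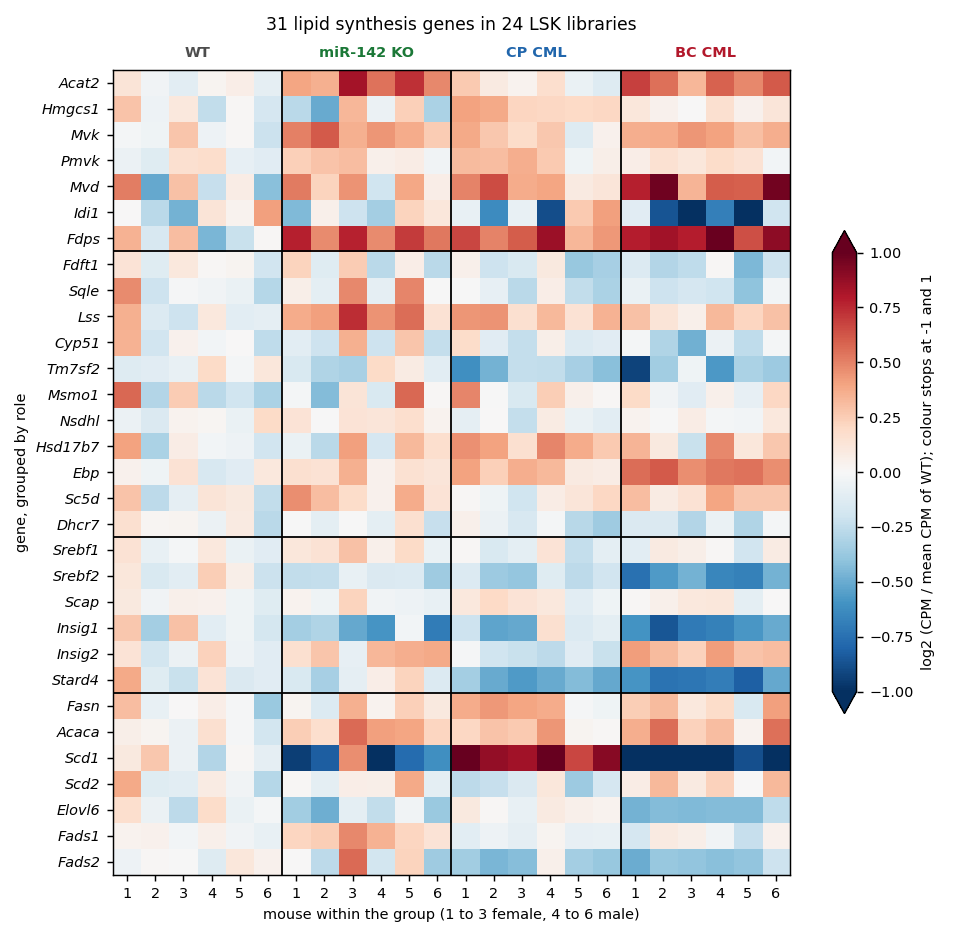
Each cell is the log2 ratio of a gene's CPM in 1 library (columns, 6 mice per group) to its mean over the 6 WT libraries (rows, 31 genes by role, with lines between roles and groups). Acat2 is red across miR-142 KO and BC CML LSKs. Fdps lies above and Srebf2 below its WT mean in every library outside WT. Stard4 is blue across both CML groups. Scd1 is dark red in CP CML mice and dark blue in BC CML mice, with colours ending at -1 and 1.

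The question put first was what loss of miR-142 does in leukemic LSKs. Of the 31 genes, 4 were higher and 4 lower in BC CML than CP CML LSKs. Over all 13520 genes tested, 20.4% were higher and 17.6% lower (edgeR quasi-likelihood test, Benjamini-Hochberg adjusted p under 0.05), 38% in all, and the 8 genes were 25.8% of the 31. Under upper quartile normalization the split over all genes turned from 2757 higher and 2380 lower to 2162 higher and 2932 lower, while the 31 genes had 4 higher and 5 lower. The median log2 fold change was -0.04 for the 31 genes and 0.01 for all genes. CPM of the 2 groups did not overlap for 7 of the 31 genes, against 20.7% of all genes. Of the 8 changed genes, 1 was a mevalonate enzyme, 1 a sterol enzyme, 3 were control genes and 3 were fatty acid genes.

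**Figure D2:**
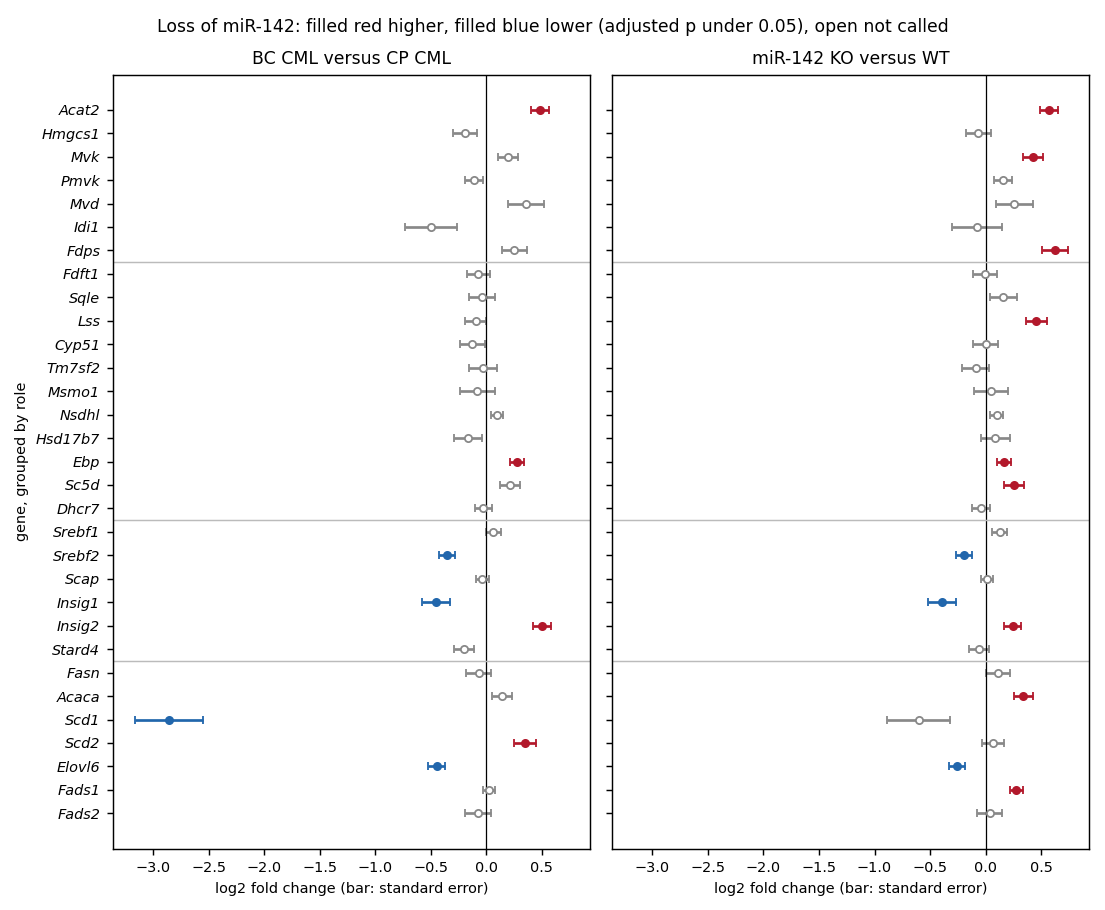
Log2 fold change with its standard error for each of the 31 genes, BC CML against CP CML LSKs on the left and miR-142 KO against WT LSKs on the right, on 1 shared axis, with 6 mice per group. Scd1 stands apart on the left at -2.86, and Acat2, Ebp and Insig2 lie to the right of 0 and Srebf2, Insig1 and Elovl6 to the left in both panels, all past the threshold.

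Scd1 (chr19:44394450-44407709, minus strand), which puts the first double bond into saturated fatty acids, showed the largest fold change of the 31 genes. Its lowest, median and highest levels were 3.103, 3.636 and 4.791 CPM in CP CML and 0.33, 0.4174 and 1.063 CPM in BC CML LSKs. Every BC CML library was below every CP CML library. The raw counts behind these values were 71 to 92 and 7 to 25. The log2 fold change was -2.86 ± 0.31 (SE), 7.26-fold lower (edgeR adjusted p = 1.7e-07).

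Scd2 (chr19:44293676-44306862, plus strand), a second desaturase gene on the same chromosome, moved the other way. It had 464.6, 519.2 and 646 CPM (lowest, median and highest) in CP CML and 597.6, 666.2 and 747.5 CPM in BC CML LSKs, so the groups overlapped in part. Its log2 fold change was 0.35 ± 0.10 (SE; edgeR adjusted p = 0.0081). Scd1 and Scd2 are close copies, and how reads that fit both were counted was not given in the sources used here.

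Markers of other cells were set beside Scd1, since fat cells carry much of it. Of 7 adipocyte markers only Fabp4 passed the filter, and Plin1, Cidec and Lep were at 0 in all 6 BC CML libraries. Plin1 and Cidec were also at 0 in all 6 CP CML libraries, where Scd1 was highest. The summed adipocyte markers were 2.89 to 12.79 CPM in CP CML and 1.768 to 10.08 CPM in BC CML LSKs, nearly all from Fabp4, which macrophages and endothelial cells also express. Of the 8 mature B and plasma cell markers 4 fell and 0 rose, and their sum was 325.3 to 1010 CPM in CP CML and 193.5 to 277.2 CPM in BC CML LSKs. Plasma cell genes in this list fell further than the sum, with means in CP CML and BC CML LSKs of 333.5 and 5.049 CPM for Jchain, 23.05 and 0.4925 CPM for Pou2af1 and 6.1 and 0.2104 CPM for Mzb1. Xbp1, which is not limited to B cells, had 172.8 and 215.6 CPM and made up most of the sum in BC CML LSKs. The part of these cells in the Scd1 values was not tested.

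Elovl6 (chr3:129532386-129638493, plus strand), which lengthens palmitate to stearate and so makes the substrate of the desaturases, fell as well. Its lowest, median and highest levels were 110.2, 119.7 and 124.3 CPM in CP CML and 83.72, 85.87 and 97.2 CPM in BC CML LSKs, with no overlap. The log2 fold change was -0.45 ± 0.07 (SE; edgeR adjusted p = 4.5e-05). The enzymes before and beside it did not pass the test: Acaca, the acetyl-CoA carboxylase, had a log2 fold change of 0.14 ± 0.09 (SE), Fasn of -0.07 ± 0.11, and the desaturases of polyunsaturated fatty acids Fads1 of 0.03 ± 0.05 and Fads2 of -0.07 ± 0.12.

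Among the control genes, Srebf2 (chr15:82147269-82204960, plus strand) had 205.3, 229.5 and 246.4 CPM (lowest, median and highest) in CP CML and 159.9, 176.1 and 193.7 CPM in BC CML LSKs. The groups did not overlap, and the log2 fold change was -0.35 ± 0.07 (SE; edgeR adjusted p = 0.00056). The intronic Mir33, which lies inside this gene, had a mean of 0.00541 CPM over all libraries. The libraries were made from polyadenylated transcripts, so this value is no measure of mature miR-33. Srebf1, with a log2 fold change of 0.06 ± 0.07 (SE), and Scap, the SREBP escort, with -0.04 ± 0.06, did not pass the test.

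The INSIG genes went opposite ways. Insig2 (chr1:121304353-121332589, minus strand) had 16.11, 16.66 and 19.16 CPM in CP CML and 22.6, 23.93 and 25.78 CPM in BC CML LSKs, with every BC CML library higher and a log2 fold change of 0.50 ± 0.08 (SE; edgeR adjusted p = 2.7e-05). Insig1 (chr5:28071412-28078662, plus strand), itself a classic SREBP target, had 28.24, 36.11 and 45.49 CPM in CP CML and 22.45, 26.22 and 28.61 CPM in BC CML LSKs. The 2 groups of Insig1 values touched at the edge, and the log2 fold change was -0.45 ± 0.13 (SE; edgeR adjusted p = 0.0066).

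In the sterol pathway proper, Acat2 and Ebp rose. Acat2 (chr17:12943042-12960725, minus strand), the cytosolic acetoacetyl-CoA thiolase at the entry of the pathway, had 18.01, 20.62 and 23.59 CPM in CP CML and 24.87, 29.33 and 31.68 CPM in BC CML LSKs. Ebp (chrX:8185329-8193512, minus strand), the sterol isomerase, had 37.24, 43.04 and 46.75 CPM in CP CML and 48.92, 51.3 and 54.09 CPM in BC CML LSKs. Neither overlapped, with log2 fold changes of 0.48 ± 0.08 (SE; edgeR adjusted p = 7.2e-05) and 0.28 ± 0.06 (edgeR adjusted p = 0.0016).

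The other 16 mevalonate and sterol enzymes did not pass the test. They included Hmgcs1, the HMG-CoA synthase, whose log2 fold change was -0.19 ± 0.11 (SE; edgeR adjusted p = 0.18) although its BC CML levels of 60.22 to 67.05 CPM lay below the CP CML levels of 68.79 to 79.07. Sqle, the squalene epoxidase and a rate-limiting step, had a log2 fold change of -0.04 ± 0.12, and Cyp51, the lanosterol demethylase, of -0.12 ± 0.12. Idi1 had a wide error, with a log2 fold change of -0.50 ± 0.23 at 10 to 21 counts in BC CML libraries. With only the 12 libraries of these groups in the fit, 7 genes in place of 4 were higher, with Fdps, Mvd and Sc5d added, and Hmgcs1 and Stard4 were then lower.

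**Figure D3:**
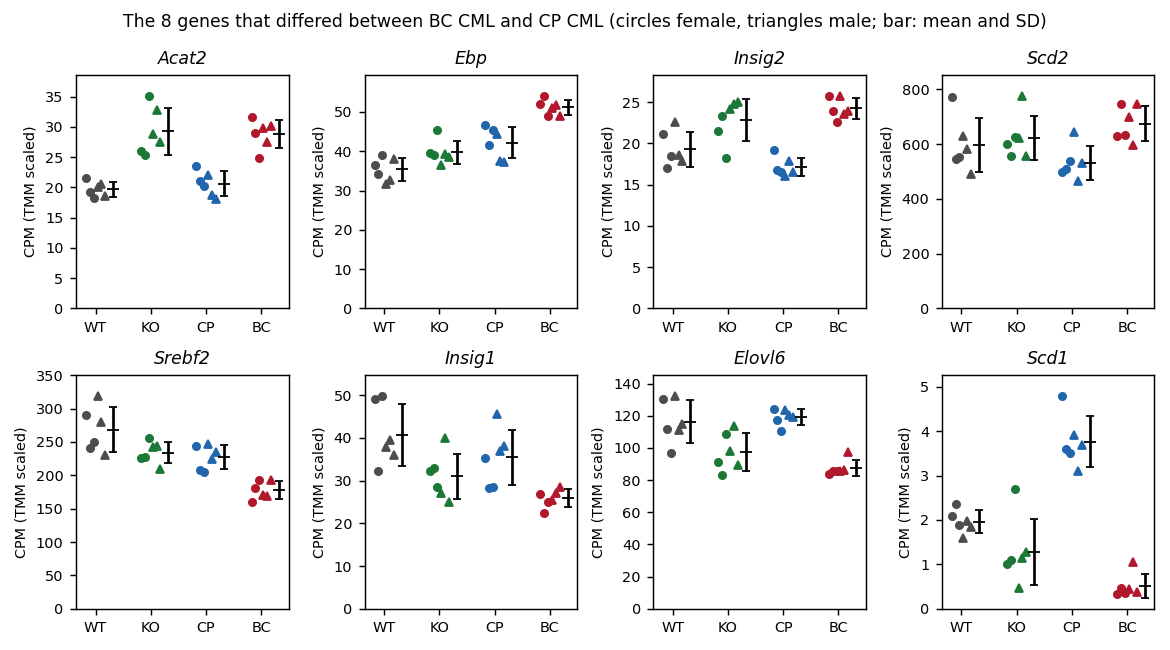
CPM of the 8 genes that differed between BC CML and CP CML LSKs in each of the 24 libraries, with the mean and SD of each group (axes start at 0; KO is miR-142 KO, CP is CP CML and BC is BC CML). In CP CML LSKs Scd1 lies between 3.103 and 4.791 CPM, above all WT libraries, and in BC CML LSKs at or below 1.063 CPM, where 5 of 6 libraries cluster and replicate 5 stands above them.

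The second question was what the same loss does in normal LSKs. In miR-142 KO against WT LSKs 9 of the 31 genes were higher and 3 lower, against 19.9% and 16.4% of all genes tested. Under upper quartile normalization the split over all genes turned from 2685 higher and 2222 lower to 2115 higher and 2918 lower, and that of the 31 genes was 6 higher and 3 lower. Groups did not overlap for 4 of the 31 genes and for 14.5% of all genes. The median log2 fold change was 0.09 for the 31 genes and 0.01 for all genes, and 21 of 31 were above 0. Of the 18 mevalonate and sterol enzymes 6 were higher and 0 lower.

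Acat2 had 18.29, 19.66 and 21.5 CPM (lowest, median and highest) in WT and 25.28, 28.12 and 35.12 CPM in miR-142 KO LSKs, without overlap, at a log2 fold change of 0.57 ± 0.08 (SE; edgeR adjusted p = 1.0e-05). Fdps, the synthase of farnesyl diphosphate at the branch to prenylation, had 9.82, 12.84 and 17.11 CPM in WT and 18.65, 20.64 and 23.13 CPM in miR-142 KO LSKs. All 6 miR-142 KO values were above all WT values, and the log2 fold change was 0.63 ± 0.11 (edgeR adjusted p = 0.00016). Lss, which closes squalene epoxide into lanosterol, had 22.43, 24.14 and 33.03 CPM in WT and 28.62, 34.82 and 43.13 CPM in miR-142 KO LSKs, where the groups overlapped, with a log2 fold change of 0.46 ± 0.09 (edgeR adjusted p = 0.00055).

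Mvk, the mevalonate kinase, rose by 0.43 ± 0.09 on the log2 scale. Sc5d, a sterol desaturase late in the pathway, rose by 0.26 ± 0.09, and Ebp by 0.17 ± 0.06 with an edgeR adjusted p of 0.048. The calls of Sc5d and Ebp were lost under upper quartile normalization, with edgeR adjusted p of 0.085 and 0.16. With only the 12 libraries of these groups in the fit both calls were lost as well. The Ebp call was also lost under edgeR's likelihood ratio test and with no filter on low counts. Without single mice the Sc5d call was lost for WT replicates 2, 3 and 6 and miR-142 KO replicates 1 and 5 (adjusted p up to 0.078), and the Ebp call for WT replicates 1, 2, 4 and 5 and miR-142 KO replicates 1 and 3 (up to 0.11).

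Among fatty acid genes, Acaca had 48.5, 55.25 and 61.46 CPM in WT and 61.78, 68.84 and 81.39 CPM in miR-142 KO LSKs, and Fads1 100.7, 106.4 and 109.7 CPM against 116.7, 124.6 and 147.5 CPM. Neither overlapped, and the log2 fold changes were 0.34 ± 0.09 (SE; edgeR adjusted p = 0.0042) and 0.28 ± 0.06 (edgeR adjusted p = 0.00039). Elovl6 fell by 0.26 ± 0.07 on the log2 scale (edgeR adjusted p = 0.0083), with 96.79 to 132.2 CPM in WT and 82.9 to 113.5 CPM in miR-142 KO LSKs.

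The control genes that changed in leukemic LSKs were also called in normal LSKs, in the same directions. Insig2 was higher by 0.24 ± 0.08 on the log2 scale (edgeR adjusted p = 0.016), with 16.98, 18.53 and 22.61 CPM in WT and 18.18, 23.8 and 25 CPM in miR-142 KO LSKs. Insig1 was lower, with 32.13, 38.61 and 49.77 CPM in WT and 25.09, 30.38 and 39.94 CPM in miR-142 KO LSKs, a log2 fold change of -0.39 ± 0.12 (edgeR adjusted p = 0.016). Srebf2 had a log2 fold change of -0.20 ± 0.07 (edgeR adjusted p = 0.037), which was 0.066 with only these 12 libraries in the fit. Its call was also lost without WT replicate 1, 4 or 5 or miR-142 KO replicate 1, 2 or 6 (adjusted p up to 0.13), and the Insig2 call under upper quartile normalization (0.060) and with only the 12 libraries (0.080).

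Scd1 did not pass the test in normal LSKs. It had 1.594, 1.926 and 2.361 CPM in WT and 0.4674, 1.127 and 2.698 CPM in miR-142 KO LSKs, at a log2 fold change of -0.60 ± 0.28 (SE; edgeR adjusted p = 0.097). The highest value belonged to miR-142 KO replicate 3, and the other 5 miR-142 KO libraries were at or below 1.28 CPM. Without that replicate the log2 fold change was -0.95 (edgeR adjusted p = 0.0043).

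Mouse to mouse spread ran through many genes at once. WT replicate 1 held the highest WT value of 17 of the 31 genes and of 12 of the 18 mevalonate and sterol enzymes, and lay 0.23 above the WT mean on the log2 scale averaged over these enzymes. The corresponding highest library was replicate 3 with 16 genes for miR-142 KO, replicate 4 with 12 genes for CP CML and replicate 6 with 10 genes for BC CML. Sqle in WT replicate 1, at 63.5 CPM, was above the 37.5 to 45.5 CPM of the other WT mice. Without WT replicate 1 the counts of higher and lower genes in miR-142 KO against WT LSKs stayed within 1.5 times those with it.

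A direct test of whether loss of miR-142 acted differently in leukemic and normal LSKs called 2 of the 31 genes. In both the log2 fold change was lower (more negative) in leukemic LSKs. Over all genes tested 1.91% had a higher and 2.08% a lower log2 fold change in leukemic LSKs, or 258 and 281 genes. These numbers were 386 and 505 under DESeq2, and without single mice they ran from 150 to 279 and from 206 to 526. One of them moved by more than 1.5 times without WT replicate 2 (167 and 301), 3 (261 and 526) or 5 (151 and 265), miR-142 KO replicate 3 (279 and 489), 5 (275 and 464) or 6 (164 and 308), CP CML replicate 2 (160 and 273) or 4 (154 and 272), or BC CML replicate 1 (150 and 225). Scd1 differed by -2.26 ± 0.41 (SE) on the log2 scale (edgeR adjusted p = 0.0035). It went from -0.60 in normal to -2.86 in leukemic LSKs, a larger fall. Lss differed by -0.55 ± 0.13 (edgeR adjusted p = 0.020), from 0.46 in normal to -0.10 in leukemic LSKs. For the other 29 genes no difference between the effects was called, among them Acat2 (-0.09 ± 0.12), Insig1 (-0.06 ± 0.18) and Insig2 (0.25 ± 0.11, with a normal-approximation 95% interval from 0.04 to 0.47 and edgeR adjusted p = 0.20). Fads1 lay close to the threshold, with a difference of -0.25 ± 0.08, an interval from -0.40 to -0.10 and an edgeR adjusted p of 0.071. It was called under DESeq2 (adjusted p = 0.027), with the filter of at least 1 CPM in 6 libraries (edgeR adjusted p = 0.046) and in 7 of the 24 fits without 1 mouse, which made 3 genes in place of 2 in each of these settings.

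The third question was what BCR-ABL does with miR-142 present. Of the 31 genes 8 were higher and 4 lower in CP CML than WT LSKs, against 22.5% and 22.9% of all genes tested, and groups did not overlap for 3 of 31 genes and for 21.8% of all genes. Scd1 rose from 1.926 to 3.636 CPM at the median without overlap, by 0.94 ± 0.27 on the log2 scale (edgeR adjusted p = 0.0072). Fdps rose by 0.57 ± 0.12 (edgeR adjusted p = 0.00036), from 9.82 to 17.11 CPM in WT to 16.96 to 24.34 CPM in CP CML LSKs.

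Stard4, which carries cholesterol between membranes, fell from 57.14, 61.56 and 87 CPM (lowest, median and highest) in WT to 45.17, 47.08 and 52.94 CPM in CP CML LSKs. The groups did not overlap, and the log2 fold change was -0.47 ± 0.09 (SE; edgeR adjusted p = 0.00028). Tm7sf2 fell by 0.38 ± 0.13 on the log2 scale, also without overlap, and Srebf2 by 0.24 ± 0.07. Fads2 fell by 0.30 ± 0.12.

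The remaining rises were smaller. Lss rose by 0.32 ± 0.09, Ebp by 0.25 ± 0.07 and Hsd17b7, a sterol ketone reductase, by 0.36 ± 0.13 on the log2 scale. Hmgcs1, Fasn and Pmvk, the phosphomevalonate kinase, were close to the threshold, with edgeR adjusted p of 0.047, 0.050 and 0.034. Leaving out single mice ended the Hmgcs1 call for WT replicates 2, 4, 5 and 6 and CP CML replicates 1 and 2 (adjusted p up to 0.095). It ended the Fasn call for WT replicates 2, 3, 5 and 6 and CP CML replicates 1 to 4 (up to 0.13), and the Pmvk call for WT replicates 1, 2 and 6 and CP CML replicates 2 and 3 (up to 0.068). It ended the Hsd17b7 call for WT replicates 2 and 6 (up to 0.055), the Tm7sf2 call for WT replicate 4 and CP CML replicate 1 (up to 0.055), and the Fads2 call for WT replicates 2, 3, 5 and 6 and CP CML replicates 1, 2, 3, 5 and 6 (up to 0.087). The number of higher genes fell to 5 without WT replicate 2 or CP CML replicate 2, to 4 without WT replicate 6, and to 5 under upper quartile normalization or with no filter on low counts. The number of lower genes fell to 2 without CP CML replicate 1.

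The same transgene on the miR-142-/- background gave 2 higher and 7 lower genes in BC CML against miR-142 KO LSKs, where 20.3% of all genes were higher and 19.3% lower. Under upper quartile normalization the split over all genes turned from 2747 higher and 2611 lower to 2383 higher and 3135 lower, and the 31 genes had 2 higher and 9 lower. Groups did not overlap for 4 of the 31 genes and for 10.6% of all genes. BC CML LSKs are the shared group of this comparison and of that with CP CML, so the 2 are not independent. The other groups are shared between comparisons in the same way, such as CP CML LSKs between those with WT and with BC CML LSKs.

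Stard4 had 53.12, 61.91 and 77.99 CPM in miR-142 KO and 37.99, 40.92 and 46.8 CPM in BC CML LSKs, a log2 fold change of -0.62 ± 0.09 (SE; edgeR adjusted p = 2.9e-05) without overlap. Srebf2 fell by 0.40 ± 0.07 (edgeR adjusted p = 0.00027) and Fads1 by 0.31 ± 0.06 (edgeR adjusted p = 0.00018), both without overlap. Ebp rose without overlap, from 36.42 to 45.3 CPM in miR-142 KO to 48.92 to 54.09 CPM in BC CML LSKs, by 0.36 ± 0.06 on the log2 scale (edgeR adjusted p = 0.00018).

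Scd1 was 2.49-fold lower in BC CML than miR-142 KO LSKs (log2 fold change -1.31 ± 0.31 SE; edgeR adjusted p = 0.0022), with groups that overlapped, while it was higher in CP CML than WT LSKs. Mvd, the mevalonate diphosphate decarboxylase, was higher by 0.46 ± 0.17 (edgeR adjusted p = 0.029). Sqle, Lss and Fads2 were lower by log2 fold changes of -0.33 ± 0.12, -0.24 ± 0.09 and -0.42 ± 0.12. Tm7sf2 had an edgeR adjusted p of 0.050, just above the threshold. Without miR-142 KO replicate 6 the lower genes numbered 11. The Mvd call was lost without miR-142 KO replicate 2, 4 or 6 or BC CML replicate 1, 2 or 6 (adjusted p up to 0.076), which left 1 higher gene. The Lss call was lost without miR-142 KO replicate 3, 4 or 5 or BC CML replicate 1, 2, 3 or 5 (up to 0.098), and the Sqle call without miR-142 KO replicate 3 or 5 or BC CML replicate 5 (up to 0.073).

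**Figure D4:**
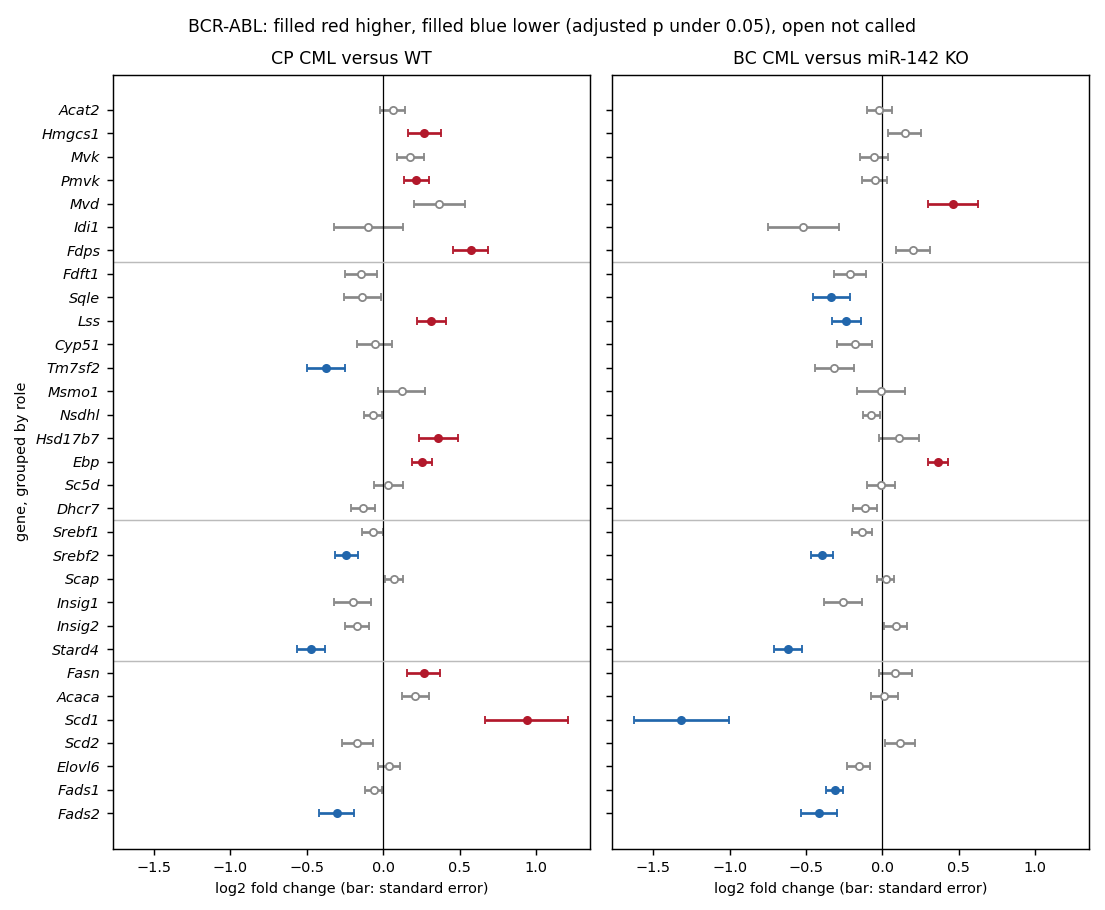
Log2 fold change with its standard error for the 31 genes, CP CML against WT LSKs on the left and BC CML against miR-142 KO LSKs on the right, on 1 shared axis, with 6 mice per group. Stard4 and Srebf2 lie to the left of 0 and Ebp to the right in both panels, all past the threshold, and Scd1 lies at 0.94 on the left and at -1.31 on the right.

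Across the 5 tests (4 comparisons and the difference between the miR-142 effects), 8 of the 31 genes (25.8%) passed in none, against 24.5% of all 13520 genes tested. In the order of the pathway they were Idi1, Fdft1, which joins farnesyl units into squalene, Cyp51, Msmo1 and Nsdhl, which strip methyl groups from lanosterol, Dhcr7, the last reductase, and the control genes Srebf1 and Scap. Scap had medians of 113.4 CPM for WT, 110.1 for miR-142 KO, 121.9 for CP CML and 115.8 for BC CML mice. Dhcr7 had medians of 40.61, 38.53, 37.07 and 36.19 CPM in that order, and Cyp51 of 47.47, 42.98, 44.21 and 43.02 CPM. Between WT mice Cyp51 ran from 40.06 to 60.94 CPM and Msmo1 from 20.29 to 37.63 CPM. Fdft1 shares 773 bases with Ctsb on the opposite strand.

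Ratios of related genes within a library need no scaling factor between libraries. The ratios use the counts already tested gene by gene, for pairs chosen with earlier results known. The ratios are therefore no independent support for the single-gene calls. They were taken as counts per kilobase with 2 counts added, and compared with 2-sided exact permutation tests over all assignments of the 12 libraries, whose smallest p is 0.0022, adjusted over 12 tests. The ratio of Scd1 to Scd2 was -6.94 ± 0.23 on the log2 scale in CP CML (SD, n = 6) and -10.05 ± 0.60 in BC CML LSKs, a difference of -3.12 (exact permutation adjusted p = 0.0037). In WT it was -8.01 ± 0.29 and in miR-142 KO LSKs -8.80 ± 0.77, a difference of -0.79 (exact permutation adjusted p = 0.038). CP CML exceeded WT by 1.08 (exact permutation adjusted p = 0.0037), and BC CML lay below miR-142 KO by a difference of -1.25 (exact permutation adjusted p = 0.019). The call in normal LSKs was lost without WT replicate 2, 3, 5 or 6 or miR-142 KO replicate 1, 2, 4 or 5 (exact permutation adjusted p up to 0.080).

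Insig1 and Insig2 had been called in opposite directions with loss of miR-142 in leukemic and in normal LSKs, and their ratio restates those calls. The ratio of Insig1 to Insig2 split the mice by miR-142. It was 0.9, 1.2 and 1.59 (lowest, median and highest, log2 scale) in WT and 0.91, 1.12 and 1.65 in CP CML LSKs, against 0.17, 0.7 and 0.85 in miR-142 KO and 0.07, 0.26 and 0.42 in BC CML LSKs. All 12 libraries without miR-142 were below all 12 with it. The differences were -0.63 in normal and -0.93 in leukemic LSKs (exact permutation adjusted p = 0.0037 for each), while CP CML and WT differed by -0.04 (exact permutation adjusted p = 0.80). BC CML and miR-142 KO differed by -0.34 (exact permutation adjusted p = 0.038), a call lost without miR-142 KO replicate 1, 2, 3 or 5 or BC CML replicate 1, 2 or 4 (up to 0.073).

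Srebf1 against Srebf2 rose with both changes. The ratio was -1.38 ± 0.11 in WT, -1.22 ± 0.10 in CP CML, -1.07 ± 0.07 in miR-142 KO and -0.80 ± 0.08 in BC CML LSKs (log2 scale; SD, n = 6). The groups did not overlap in BC CML against CP CML (0.42), miR-142 KO against WT (0.32) and BC CML against miR-142 KO (0.26), each with an exact permutation adjusted p of 0.0037. In CP CML against WT LSKs the difference was 0.16 (exact permutation adjusted p = 0.038), a call lost without WT replicate 4 or 5 or CP CML replicate 1, 2, 3 or 4 (up to 0.071). Srebf1 shares 112 bases with Rai1 on the opposite strand.

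**Figure D5:**
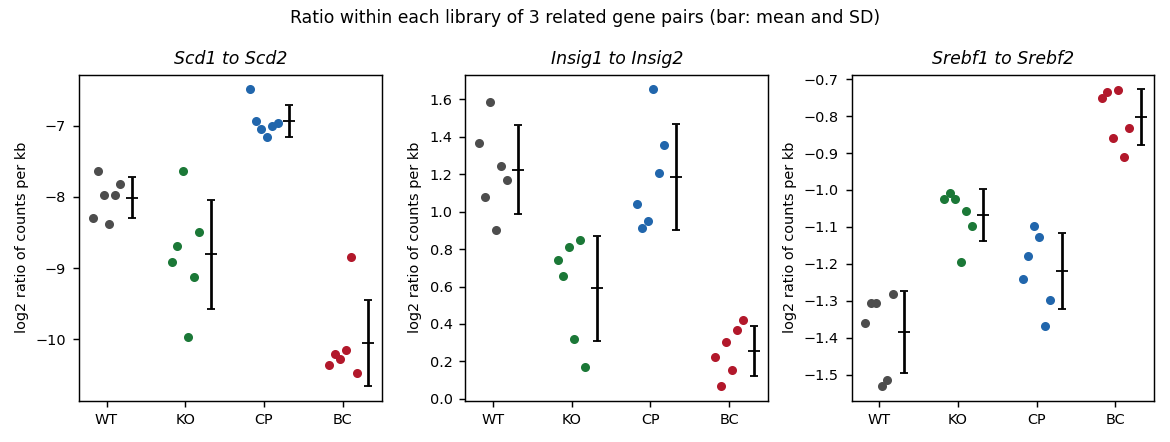
Log2 ratio of counts per kilobase (2 counts added) within each library for Scd1 to Scd2, Insig1 to Insig2 and Srebf1 to Srebf2, with each group's mean and SD over 6 mice. BC CML LSKs lie lowest for the first and second pairs and highest for the third.

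Genes next to these in lipid metabolism were listed by symbol and described by counts, to be read against the 38% of all genes called in BC CML against CP CML LSKs and the 36.3% called in miR-142 KO against WT LSKs. Of 18 other sterol and isoprenoid genes, 6 were higher and 1 lower in BC CML than CP CML LSKs (38.9% called), and 7 higher and 2 lower in miR-142 KO than WT LSKs (50%). Erlin2 and Erlin1, endoplasmic reticulum proteins that take part in the breakdown of sterol-regulated proteins, led in leukemic LSKs, with log2 fold changes of 0.43 ± 0.03 (SE; edgeR adjusted p = 7.5e-10) and 0.61 ± 0.06 (edgeR adjusted p = 8.5e-08). In normal LSKs they were higher by 0.32 ± 0.03 and 0.57 ± 0.06, and Mbtps1, the protease that makes the first cut of SREBPs, by 0.31 ± 0.05. Fntb, the farnesyltransferase subunit, was higher by 0.42 ± 0.06 in leukemic LSKs.

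Of 23 tested genes of sterol uptake, transport, esterification and efflux, 5 were higher and 4 lower in BC CML than CP CML LSKs (39.1% called), and 7 higher and 4 lower in miR-142 KO than WT LSKs (47.8%). Soat1, which esterifies cholesterol for storage, had 46.3, 55.09 and 58.08 CPM (lowest, median and highest) among WT and 63.61, 78.62 and 98.93 CPM among miR-142 KO mice. CP CML mice had 100.8, 121.8 and 135.1 CPM and BC CML mice 131.4, 149 and 156.3 CPM, so of neighbours in this order the CML groups overlapped and the others did not. It rose by 1.15 ± 0.09 on the log2 scale in CP CML against WT LSKs (edgeR adjusted p = 4.7e-09). Its relative Soat2 rose by 1.04 ± 0.12 there. In BC CML against CP CML LSKs Soat2 was lower by a log2 fold change of -0.496 ± 0.115 (SE; edgeR adjusted p = 0.0016). The Soat2 log2 fold change with loss of miR-142 was more negative in leukemic than in normal LSKs. The difference was -1.18 ± 0.16 (edgeR adjusted p = 0.00026). Abcg1, a cholesterol exporter, fell by 0.59 ± 0.07 in CP CML against WT LSKs and rose by 0.59 ± 0.07 in BC CML against CP CML LSKs, and the miR-142 effects differed by 0.72 ± 0.11 (edgeR adjusted p = 0.00037).

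In 22 tested genes of fatty acid supply and elongation, 11 were higher and 0 lower in BC CML than CP CML LSKs (50% called), and 8 higher and 0 lower in miR-142 KO than WT LSKs (36.4%). Hacd2 and Tecr, which act in the same elongation cycle as Elovl6, were higher in leukemic LSKs by 0.47 ± 0.06 and 0.20 ± 0.04 and in normal LSKs by 0.49 ± 0.06 and 0.28 ± 0.04 on the log2 scale, where Elovl6 was lower. Of 19 tested glycerolipid and lipid droplet genes, 6 were higher and 3 lower in leukemic (47.4% called) and 7 higher and 3 lower in normal LSKs (52.6%). Dgat2, which makes triglyceride, had medians of 1.232 CPM for WT, 4.595 for miR-142 KO, 12.22 for CP CML and 19.36 for BC CML mice, and rose by 3.17 ± 0.28 on the log2 scale in CP CML against WT LSKs (edgeR adjusted p = 1.3e-08). The mast cell or basophil marker sum moved in the same order over the groups as Soat1 and Dgat2, and its part in them was not tested.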

How the data were processed

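LSKs were sorted from 24 mice, and RNA libraries of polyadenylated transcripts were sequenced as paired-end reads. The authors deposited read counts per gene without normalization. According to the methods and the submitters' processing notes, Trimmomatic and FASTP cleaned the reads, STAR 2.6.0 aligned them to mm10 and HTSeq 0.11.1 counted them. The annotation and the strand setting were not given in the sources used here, so reads of a gene and of an overlapping neighbour cannot be told apart (773 shared bases of Fdft1 with Ctsb, 26 of Tm7sf2 with Vps51). Another column gives gene length in kilobases. The methods state fewer mice per group than the 6 labelled, and all 6 were used. Each of the 24 columns was matched to its mouse and 0 were left over.

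Counts were tested in edgeR 4.0.16 (R 4.3.3) by 1 quasi-likelihood fit of the 24 libraries, after filterByExpr and TMM scaling. P-values were adjusted by Benjamini-Hochberg over 13520 genes at 0.05, with no limit on the fold change. CPM were scaled by TMM. Mouse replicate numbers only name the mice. No libraries of a group agreed within sampling noise. The alternatives were edgeR's likelihood ratio test, DESeq2 1.42.0, RLE and upper quartile factors, no filter or 1 CPM in 6 libraries, sex as a covariate, only the 12 libraries compared, a prior count of 0.5 for ratios, and each mouse left out. Data were simulated for BC CML against CP CML LSKs over 13520 genes. The test recovered 57 of 67 genes changed 1.5-fold, with 7 false calls among 13214 genes. The simulation changed far fewer genes than the 38% called in the data, all above 1 CPM on average. Of the 8 genes called among the 31 in that comparison, all but Scd1 changed less than 1.5-fold, so their recovery was not measured. Motifs and seed sites were found by exact letter match.

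The 31 genes, the neighbouring lists, the cell markers and the tests were chosen with earlier results of these data known. All 31 genes were named, up to 3 of each neighbouring list per comparison by smallest adjusted p, and Mir142. Mir33 was added after its value was seen. Limits for counts of 0 cover counting error only. The intervals of log2 differences follow from the standard errors of the quasi-likelihood fit, which include spread between mice.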

Additional observations from a re-analysis of the deposited data

Results flagged for a closer look

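Of 124 sets of 6 values (31 genes in 4 groups), 8 held a library far from the other 5, and chance alone flags about 1 in 20. Sqle had 63.5 CPM in WT replicate 1, with the other mice at 37.5 to 45.5 CPM. In miR-142 KO replicate 3, Ebp had 45.3 CPM (others 36.4 to 39.6), Scap 132 CPM (others 108 to 116) and Scd1 2.7 CPM (others 0.467 to 1.28). Scd2 had 777 CPM in miR-142 KO replicate 5, with the others at 556 to 625 CPM. Scd1 had 1.06 CPM in BC CML replicate 5 (others 0.33 to 0.475), and Elovl6 had 97.2 CPM in BC CML replicate 6 (others 83.7 to 86.1). Fads2 had 60.4 CPM in CP CML replicate 4, with the others at 42.4 to 45.9 CPM. In 2 genes the effect of loss of miR-142 differed between leukemic and normal LSKs by the interaction term, Scd1 by -2.26 and Lss by -0.55 on the log2 scale. Without BC CML replicate 5 the Scd1 difference was -2.63, and without miR-142 KO replicate 3 it was -1.93.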

How the results depend on the processing

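No gene of the 31 changed direction past the threshold under an alternative, and neither normalization nor filter moved the median log2 fold change of all genes by 0.1. The number of higher genes in CP CML against WT LSKs was 5 under upper quartile normalization and 5 with no filter, in place of 8, and in BC CML against CP CML LSKs it was 7 with only the 12 libraries compared, in place of 4. The causes were not tested. Leaving out single mice, the numbers ranged from 4 to 11 higher and 2 to 4 lower in CP CML against WT LSKs, and from 1 to 2 higher and 5 to 11 lower in BC CML against miR-142 KO LSKs. The log2 ratio differences ranged from -1.026 to -0.56 for Scd1 to Scd2 in miR-142 KO against WT LSKs (highest adjusted p 0.080), from -0.42 to -0.284 for Insig1 to Insig2 in BC CML against miR-142 KO LSKs (0.073) and from 0.135 to 0.195 for Srebf1 to Srebf2 in CP CML against WT LSKs (0.071), and these exact permutation calls were lost without 8, 7 and 6 of the 12 mice in turn. The Scd1, Acat2, Ebp, Insig2, Scd2, Srebf2, Insig1 and Elovl6 calls in BC CML against CP CML LSKs held in each of these settings. No paired analysis was possible because the labels give no numbers shared between groups. Idi1 and Scd1, with 7 to 92 counts per library, are measured least precisely.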

Other observations

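Over all genes tested, 45.4% passed the test in CP CML against WT LSKs and 39.6% in BC CML against miR-142 KO LSKs. Of 19 tested glycerolipid and lipid droplet genes, 9 were higher and 3 lower in the former (63.2% called), and 7 higher and 2 lower in the latter (47.4%). Dgat2 led both, with a log2 fold change of 1.97 ± 0.25 (SE; edgeR adjusted p = 3.7e-06) in BC CML against miR-142 KO LSKs. Lpcat2, a lysophosphatidylcholine acyltransferase, was higher by 0.75 ± 0.14 and Lpin2, a phosphatidate phosphatase, lower by a log2 fold change of -0.29 ± 0.05 in CP CML against WT LSKs. Of 22 tested fatty acid supply and elongation genes, 6 were higher and 4 lower in CP CML against WT LSKs (45.5% called), and 4 higher and 2 lower in BC CML against miR-142 KO LSKs (27.3%). Elovl1, an elongase of very long chain fatty acids, was higher in both, by 0.45 ± 0.08 and 0.41 ± 0.07 on the log2 scale. Acss2, which makes acetyl-CoA from acetate, was lower in both, by log2 fold changes of -0.58 ± 0.13 and -0.64 ± 0.13.

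Of 23 tested sterol uptake, transport, esterification and efflux genes, 6 were higher and 2 lower in CP CML against WT LSKs (34.8% called), and 1 (Soat1, log2 fold change 0.89 ± 0.09) higher and 0 lower in BC CML against miR-142 KO LSKs (4.35%). Of 18 other sterol and isoprenoid genes, 3 were higher and 0 lower in each of these comparisons (16.7% called). Pdss1, a subunit of the enzyme that makes the ubiquinone side chain, was higher by 0.75 ± 0.11 on the log2 scale in CP CML against WT LSKs. With loss of miR-142, the acyltransferase genes Lpcat3 and Agpat3 went opposite ways in both settings. Lpcat3 was higher by 0.44 ± 0.05 in leukemic and 0.41 ± 0.05 in normal LSKs, and Agpat3 lower by log2 fold changes of -0.91 ± 0.16 and -1.04 ± 0.16.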
